A study of Mus musculus with 3 samples.

Results

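The 10 genes described here carry the unfolded protein response and the integrated stress response: Ern1, Eif2ak3, Atf6, Xbp1, Atf4, Ddit3, Hspa5, Asns, Trib3 and Chac1. They were taken from the gene and transcript tables by symbol, 10 of 55536 gene rows, all 10 of them protein-coding. An eleventh row, a second identifier for Ddit3, held 0 counts in every library, and the other Ddit3 row was used. The cells were bone marrow-derived macrophages of C57BL/6J mice, primary phagocytes grown from marrow, and the RNA was that of their cytosolic fraction after ribosomal RNA depletion. All 3 libraries came from 1 group: cells given lipid A at 100 ng/ml for 12 h, left without it for a further 12 h, and taken at 0 min of a second stimulation with lipid A. Lipid A is the part of bacterial lipopolysaccharide that the receptor Tlr4 senses. The labels number the libraries as biological replicates 1, 2 and 3 under the same donor identifier without stating that separate animals were used, so a p-value here speaks of these libraries alone and their spread may be technical. Age and sex were not collected. No untreated or restimulated cells were analysed here, so the values give the level of each gene in this state and no effect of lipid A.

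The endoplasmic reticulum (ER) folds secreted and membrane proteins, and misfolded protein there is sensed by Ern1 (IRE1alpha), Eif2ak3 (PERK) and Atf6. Ern1 cuts a short intron out of Xbp1 messenger RNA, Atf6 is cut in the Golgi to release a transcription factor, and Eif2ak3 phosphorylates the initiation factor eIF2, which lowers translation in general and favours that of Atf4. Other eIF2 kinases respond to double-stranded RNA, amino acid shortage or haem shortage, and they share the Atf4 branch, which is called the integrated stress response. Much of this control acts on protein cleavage, phosphorylation and translation, which levels of messenger RNA do not measure.

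The gene rows summed to 28981178 expected counts in replicate 1, 53119941 in replicate 2 and 46783133 in replicate 3. All 10 macrophage markers listed stood at 10 TPM or more in every library. TPM is transcript abundance normalised for length and for the total of the table. Of 34 markers of neutrophils, plasma and B cells, T and NK cells, dendritic cells, fibroblasts and erythroid cells, 5 stood at 1 TPM or more throughout and 8 were without a count in all 3 libraries, Ly6g, Cd79a, Mzb1, Klrb1c and Pdgfra among them. The 5 were Csf3r, S100a8, S100a9, Cd79b and Batf3. The 34 markers summed to 52.2, 37.1 and 57.2 TPM in replicates 1, 2 and 3, most of it Csf3r, and without Csf3r to 9.33, 13.1 and 17.3 TPM. The nuclear RNA Malat1 was listed at 157.7, 91.0 and 1343 TPM and Neat1 at 16.8, 10.4 and 91.4 TPM, so replicate 3 stood apart in these nuclear RNAs. Kcnq1ot1, another such RNA, was 67.2 times as high in scaled counts in its highest library, again replicate 3, as in its lowest. In bulk RNA, fewer cells expressing a gene and less RNA per cell cannot be told apart.

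Short sequences from the regulatory regions of Hspa5, Chac1, Trib3 and Asns, and the Xbp1 intron, are shown first because the results turn on these genes. Promoter sequences are from RefSeq on GRCm38.p6 and cover 250 bases before to 50 after a start site, with 9 of 10 members matched and Atf6 without an entry. Capitals mark the motif in the first 5 sequences and the intron in the last, and each sequence runs 5′ to 3′ on the strand of its gene.
Hspa5, ER stress response element, chr2:34772020-34772048, plus strand: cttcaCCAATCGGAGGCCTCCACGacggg
Hspa5, unfolded protein response element core, chr2:34771922-34771950, plus strand: gggcgtagcaaTGACGTGagttgcggagg
Chac1, CARE motif, chr2:119351038-119351067, plus strand: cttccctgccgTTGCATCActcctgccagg
Trib3, CARE motif, chr2:152344028-152344057, minus strand: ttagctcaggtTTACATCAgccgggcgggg
Asns, CARE motif, chr6:7693214-7693243, minus strand: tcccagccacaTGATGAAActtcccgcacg
Xbp1, intron removed by Ern1, chr11:5524279-5524304 for the capitals, plus strand: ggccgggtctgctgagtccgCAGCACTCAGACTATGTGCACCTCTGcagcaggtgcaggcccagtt

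The CARE motif (C/EBP-ATF response element), to which Atf4 binds as a dimer with C/EBP proteins, was searched as TGATGNAA on both strands. It was found in 3.97% of 32851 promoter windows of this length. Among the 9 members with a window it occurred in 3: at -193 from the start of Chac1, at 14 bases after that of Trib3 and at -23 from that of Asns. In Chac1 and Trib3 the match lies on the opposite strand, so the capitals show its reverse complement. The ER stress response element, bound by Atf6 with the factor NF-Y, was searched by the name ERSE as CCAAT and CCACG separated by 9 bases. It was found in 0.119% of windows and in 1 member, Hspa5, at -65. The core of the unfolded protein response element, TGACGTG, was found in 2.01% of windows and again in Hspa5 alone of the members, at -157. ERSE-II, ATTGG and CCACG separated by 1 base, was found in 0.0365% of windows and in none of the 9. The Chac1 match lies upstream of the annotated gene, which starts at 119351229 on chromosome 2. The Asns match lies inside the bounds of its gene, chr6:7675169-7693254, and the Hspa5 ERSE inside those of Hspa5, chr2:34771970-34777547. The Trib3 gene, on the minus strand, spans chr2:152337422-152344032, so its match lies just before the start in that annotation and after the RefSeq start. Distances refer to the RefSeq start and to the first base of a match. These are matches of letters and do not show that a factor was bound.

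By level, the members spanned from about 1 to about 200 TPM, led by the chaperone Hspa5 and the transcription factors Ddit3 and Atf4, with the amino acid and glutathione genes Asns and Chac1 and the kinase Eif2ak3 low. Of the 10, 9 reached 1 TPM in every library, all but Chac1, where 41.2% of 22028 protein-coding genes did. At 10 TPM or more in every library stood 6, Hspa5, Ddit3, Atf4, Xbp1, Atf6 and Ern1, where 17.1% of protein-coding genes did. The median of the members' mean TPM was 12.5. That over all protein-coding genes, most of which did not reach 1 TPM throughout, was 0.16. Against the 9074 protein-coding genes at 1 TPM or more in every library the difference was smaller. Among those, Ern1 and Atf6, the members on either side of the median, lay at the 55.4 and 65.3 percentiles.

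**Figure D1:**
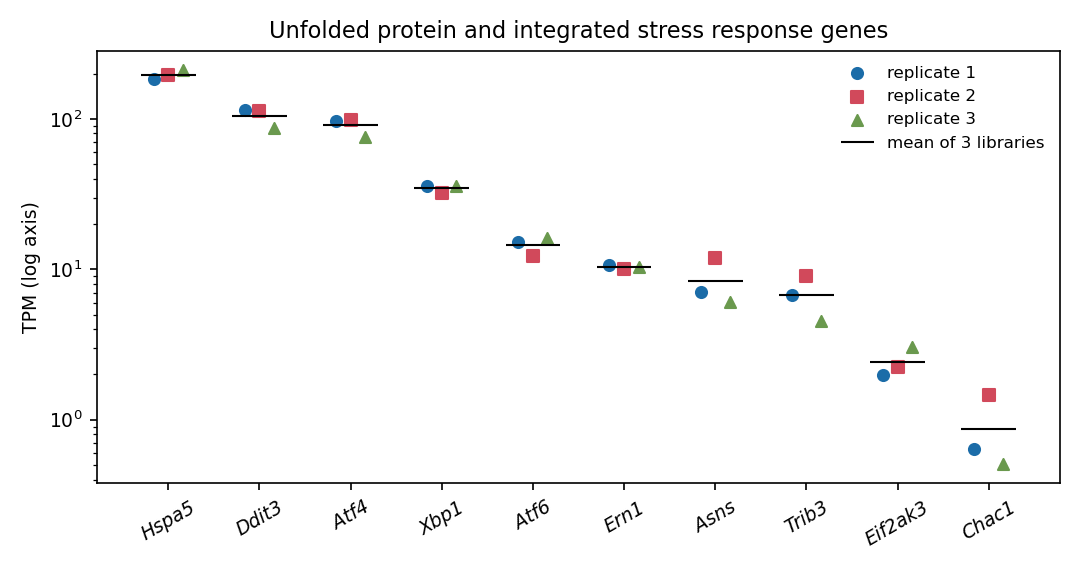
TPM of the 10 members (log axis) in replicates 1, 2 and 3, with a line at the mean of the 3 libraries. Hspa5, Ddit3 and Atf4 lie highest and Chac1 lowest, and the libraries spread most for Chac1, Asns and Trib3.

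Hspa5 (BiP) is the main Hsp70 chaperone of the ER lumen and holds the 3 sensors inactive until misfolded protein draws it away. It was at 183.5, 197.3 and 210.1 TPM in replicates 1, 2 and 3, or 197 ± 13.3 (SD, n = 3). This was the highest level of the 10 in every library and lay at the 99.2 percentile of protein-coding genes. Its mean was 1.88 times that of Ddit3, the next gene, and their ranges did not overlap.

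The sensors stood well below their chaperone. Atf6, which lies on chromosome 1, was at 15.2, 12.3 and 16.3 TPM, or 14.6 ± 2.07 (SD, n = 3), at the 85.7 percentile. Ern1, on chromosome 11, was at 10.61, 10.04 and 10.39 TPM, or 10.3 ± 0.287 (SD, n = 3). Eif2ak3, on chromosome 6, was at 1.97, 2.23 and 3.04 TPM, or 2.41 ± 0.558 (SD, n = 3), at the 63.7 percentile. These percentiles are over all protein-coding genes, many of them not expressed. Among protein-coding genes at 1 TPM or more in every library, Atf6 lay at the 65.3, Ern1 at the 55.4 and Eif2ak3 at the 11.8 percentile. The order Atf6, Ern1, Eif2ak3 held in all 3 libraries without overlap. Ern1 exceeded Eif2ak3 by 5.39, 4.50 and 3.42 times in replicates 1, 2 and 3, and Atf6 exceeded it by 7.72, 5.49 and 5.35 times.

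The downstream transcription factors were higher than the sensors. Xbp1, whose spliced messenger RNA encodes the active factor of the Ern1 branch, was at 35.9, 31.9 and 35.8 TPM, or 34.5 ± 2.26 (SD, n = 3). Atf4, the translationally controlled factor of the integrated stress response, was at 97.2, 98.5 and 75.6 TPM, or 90.4 ± 12.9 (SD, n = 3). Ddit3 (CHOP), a factor linked to cell death in lasting stress, was at 114.4, 112.5 and 87.0 TPM, or 104.7 ± 15.3 (SD, n = 3). Both were lowest in replicate 3. The ranges of Ddit3 and Atf4 overlapped, yet within each library Ddit3 was the higher, by 1.18, 1.14 and 1.15 times. In the table made directly from the reads the same ratio was 1.21, 1.17 and 1.18. The counts of Ddit3 carry a limit: the gene overlaps Mars, the methionyl-tRNA synthetase gene, on the opposite strand. The sources used here do not give the strand setting of the counting, and Mars itself held 740, 1608 and 1239 expected counts beside 3496, 7153 and 4070 for Ddit3.

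The effector genes were low and the least even. Asns, which makes asparagine, was at 7.03, 11.9 and 6.04 TPM, or 8.31 ± 3.11 (SD, n = 3). Trib3, a pseudokinase that binds Atf4 and Ddit3, was at 6.77, 9.09 and 4.53 TPM, or 6.80 ± 2.28 (SD, n = 3). Chac1, an enzyme that degrades glutathione, was at 0.64, 1.46 and 0.51 TPM, or 0.87 ± 0.515 (SD, n = 3), from 43, 199 and 51 expected counts. In all 3 genes replicate 2 was highest and replicate 3 lowest. The ranges of Ern1 and Asns overlapped, with Ern1 higher in 2 of 3 libraries, and so did those of Asns and Trib3. Apart from these and Ddit3 with Atf4, neighbours in the order of levels were separate, and the order of the means was the same in read-derived and posterior mean TPM.

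Differences between libraries were read from expected counts scaled by the TMM method to CPM, a share of the library's total, since TPM also moves with the share of other RNAs in a library: protein-coding genes held 30.97%, 27.23% and 31.58% of TPM. A gene was called different where a chi-square test of homogeneity passed an adjusted p below 0.05 (Benjamini-Hochberg over 13636 genes) and the highest library was at least 2 times the lowest. This compares 3 libraries of 1 group and covers counting error only. By this rule 16.2% of all genes and 8.12% of 11540 protein-coding genes were called, and 2.55% of protein-coding genes were called with replicate 2 highest. Of the 10 members 3 were called, Asns, Trib3 and Chac1, each with replicate 2 highest. These are the same 3 members whose promoter window holds a CARE motif. Of the tested pathway genes outside the members, Atf3, Nupr1, Pck2, Herpud1 and Eif2s3x also held a CARE motif and were not called. Slc7a11 held the motif and was called. Whether the motif has a part in the calls was not tested.

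Asns was at 21.3, 38.4 and 15.6 CPM in replicates 1, 2 and 3, a ratio of highest to lowest of 2.46 (adjusted p = 4.96e-116, chi-square test). Trib3 was at 20.8, 29.6 and 11.5 CPM, a ratio of 2.57 (adjusted p = 1.08e-85, chi-square test). Chac1 was at 1.54, 3.77 and 1.04 CPM, a ratio of 3.58 (adjusted p = 6.11e-20, chi-square test). Its exact Poisson 95% intervals were 1.11 to 2.07, 3.26 to 4.33 and 0.777 to 1.37 CPM, so replicate 2 stood above the others beyond counting error, while the intervals of replicates 1 and 3 overlapped. Replicate 2 exceeded the mean of the other 2 libraries by 2.08 times for Asns, 1.83 for Trib3 and 2.85 for Chac1. Replicate 2 stayed highest for these 3 genes in TPM, in TPM rescaled to protein-coding genes, in the read-derived values rescaled likewise and with DESeq2 size factors. In plain TPM the ratio was 1.96 for Asns, 2.01 for Trib3 and 2.86 for Chac1. With replicate 2 left out none of the 10 was called, where 13.9% of all genes tested were. With replicate 3 left out, the library rich in nuclear RNA, 1 was called, Chac1, where 4.81% of all genes were. With replicate 1 left out the same 3 were called, where 14.4% of all genes were. The part of the nuclear RNA in these differences was not tested. Among markers of other cell types, the neutrophil gene S100a9 was called and was highest in replicate 2 in CPM, at 1.18, 2.88 and 2.35. In plain TPM it was highest in replicate 3, at 2.58, 5.41 and 5.63, unlike Asns, Trib3 and Chac1. Also called were Cd79b and the dendritic cell gene Zbtb46, both highest in replicate 3. The neutrophil gene S100a8 was highest in replicate 2 in CPM without being called, and Csf3r was lowest there, at 199.3, 114.3 and 151.2 CPM. The part of these markers was not tested either.

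The other 7 members varied less. Atf4 was at 248.1, 270.7 and 165.2 CPM, a ratio of 1.64, and Ddit3 at 125.2, 135.5 and 83.3 CPM, a ratio of 1.63. Both fell short of the 2-fold rule, and both were called when a ratio of 1.5 was enough, which made 5 of 10, where 27.2% of all genes were called. Ern1 had a ratio of 1.29, Hspa5 of 1.23, Eif2ak3 of 1.23, Xbp1 of 1.21 and Atf6 of 1.17. The median ratio over the 11540 protein-coding genes tested was 1.27, and that over the members was 1.46. In CPM 7 of 10 members were highest in replicate 2, where 39.2% of protein-coding genes were, and 8 of 10 were lowest in replicate 3, where 43.2% of protein-coding genes were. Both counts depended on the scale, since in plain TPM 5 of 10 were lowest in replicate 3. Only 4 of 10 were highest in replicate 2 in plain TPM and 8 of 10 in TPM rescaled to protein-coding genes. The shares of all protein-coding genes are given in CPM only, so the counts in TPM have none to be set beside.

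**Figure D2:**
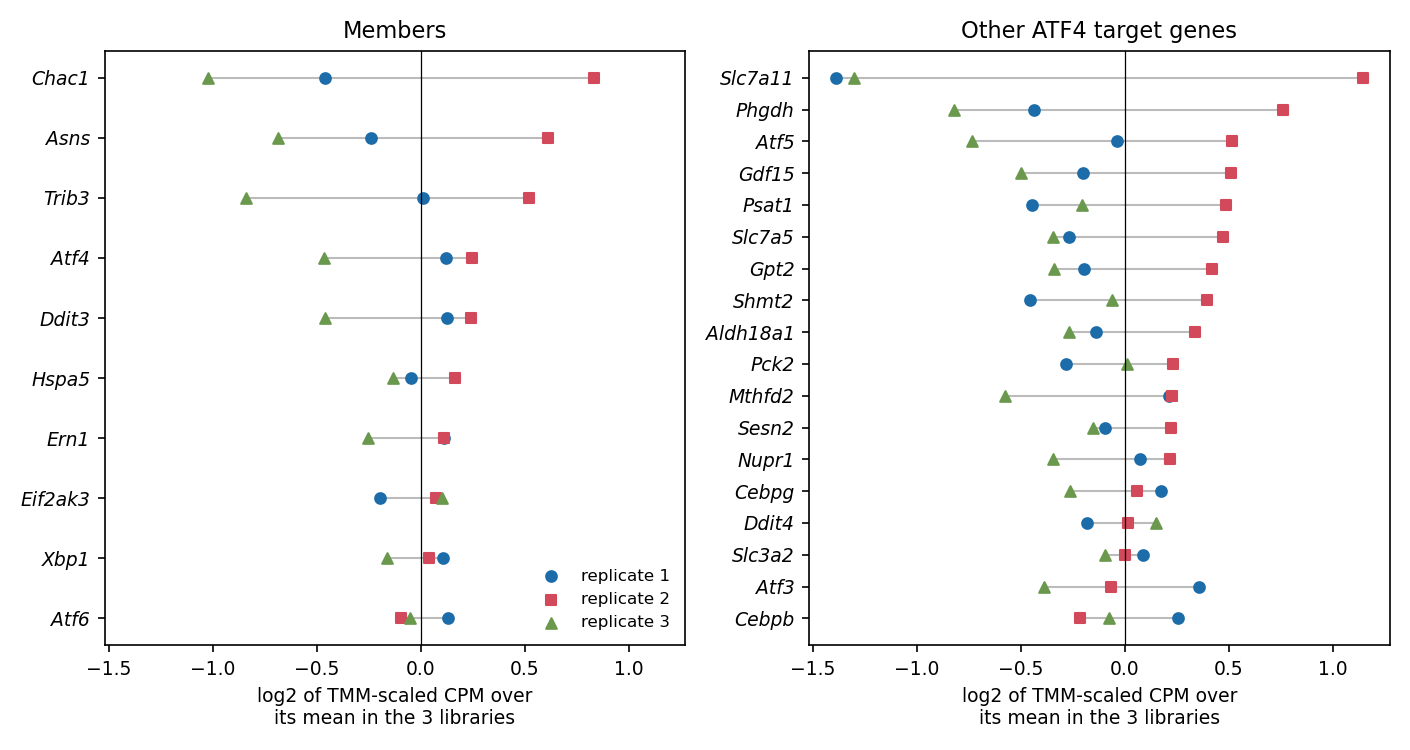
Each library's TMM-scaled CPM over the mean of the 3 libraries, on a log2 scale, for the 10 members (left) and the 18 other ATF4 target genes that were tested (right), ordered by replicate 2. Chac1, Asns and Trib3 on the left and Slc7a11, Phgdh, Atf5 and Gdf15 on the right have replicate 2 farthest above the mean.

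Of 22 other targets of Atf4, 16 were at 1 TPM or more in every library and their median was 3.46 TPM. The highest were Slc3a2, the heavy chain of amino acid transporters, at 145.6 ± 13.8 TPM (SD, n = 3), Atf3 at 88.2 ± 19.5 and Nupr1 at 84.4 ± 7.47. The lowest were Stc2, with a mean of 0.003 TPM, and Fgf21, listed at 0. Among the 18 tested 4 were called, Slc7a11, Phgdh, Atf5 and Gdf15, and all 4 were highest in replicate 2. Slc7a11, the cystine transporter, was at 2.86, 16.6 and 3.05 CPM, and Phgdh, the first enzyme of serine synthesis, at 7.34, 16.9 and 5.63 CPM. Atf5 was at 39.4, 57.7 and 24.3 CPM and the stress cytokine Gdf15 at 47.6, 77.9 and 38.6 CPM. Replicate 2 was the highest library for 13 of the 18, and the median log2 difference of replicate 2 from the mean of the others was 0.45, beside 0.04 for protein-coding genes. In plain TPM replicate 2 was the highest for 10 of the 18, with no share of all protein-coding genes given on that scale. With replicate 2 left out 0 of the 18 were called, and with replicate 3 left out 2 were, Phgdh and Slc7a11. Of the 20 with a promoter window 6 held a CARE motif, and among the 4 called only Slc7a11 did.

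Of the translation factors and enzymes around Eif2ak3, all 13 kinases, eIF2 and eIF2B subunits and phosphatase regulators listed were at 1 TPM or more in every library, with a median of 17.4 TPM. Eif2ak2 (PKR), the kinase activated by double-stranded RNA, was at 42.7, 33.3 and 44.4 TPM, or 17.1 ± 3.98 (SD, n = 3) times the level of Eif2ak3. The eIF2 subunits Eif2s2 and Eif2s3x were at 34.4 ± 4.06 and 29.1 ± 1.96 TPM (SD, n = 3). The lowest of the list were the amino acid sensor Eif2ak4 (GCN2), at 2.74 ± 0.792 TPM, and Eif2b3, at 2.34 ± 0.145 TPM (SD, n = 3). None of the 13 was called between libraries. Ppp1r15a (GADD34), the phosphatase subunit that Atf4 and Ddit3 are known to induce, came nearest, with a ratio of 1.92 and replicate 2 highest, and is named after its value was seen.

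Chaperones and folding enzymes of the ER other than Hspa5 were present throughout. All 16 listed were at 1 TPM or more in every library, 12 at 10 or more, and their median was 38.7 TPM. Calr stood at 244 ± 39.1 TPM, Hsp90b1 (GRP94) at 130.5 ± 21.3 and Canx at 119.6 ± 14.2 (SD, n = 3), and the lowest were Dnajb9 at 7.40 ± 1.18 and Ero1lb at 4.18 ± 0.492. Hspa5 was thus 1.60, 1.62 and 1.36 times Hsp90b1 in replicates 1, 2 and 3, and 0.87, 0.84 and 0.73 times Calr. None of the 16 was called. In CPM 15 of 16 were highest in replicate 2, but in plain TPM only 3 were and 13 were highest in replicate 3. The highest library of this list thus depended on the scale. Replicate 1 was lowest for 9 of 16 in CPM, where it was lowest for 31.7% of protein-coding genes. In plain TPM it was lowest for 12 of the 16, and in TPM rescaled to protein-coding genes for 14. An ERSE was found in the promoter window of 6 of the 12 genes with one, Calr, Canx, Creld2, Dnajc3, Hsp90b1 and Pdia6, beside Hspa5.

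In the remaining branches 1 gene was called. ER-associated degradation, which removes misfolded protein, had 11 of 12 genes at 1 TPM or more and a median of 22.6 TPM, from Vcp at 66.7 ± 11.4, Os9 at 48.9 ± 9.50 and Selenos at 34.4 ± 2.25 TPM down to Edem3 at 7.26 ± 0.863 and Derl3 at 0.167 ± 0.031 (SD, n = 3). Of the proteases, relatives and partners of Atf6, 8 of 10 were at 1 TPM or more, and Atf6b exceeded Atf6 by 1.37, 1.57 and 1.55 times in the 3 libraries. Nfya stood at 20.9 ± 2.91 and Creb3 at 17.2 ± 1.85 TPM, and Creb3l2 and Creb3l3 at 1.31 ± 0.348 and 0.413 ± 0.067 (SD, n = 3). Around Ern1, its inhibitor Tmbim6 was at 233.9 ± 31.8 TPM and Rtcb, the ligase that rejoins Xbp1 exons, at 20.1 ± 2.09. Traf2 was at 10.4 ± 1.11, Map3k5 at 1.13 ± 0.172 TPM (SD, n = 3), and the gut relative Ern2 had 0 counts in all 3 libraries. Of 5 death genes 3 were at 1 TPM or more, Bcl2l11 (Bim) at 17.7 ± 4.30, Pmaip1 (Noxa) at 6.91 ± 1.45 and Bbc3 (Puma) at 5.55 ± 0.627 TPM, with Casp12 at 0.52 ± 0.292 and Tnfrsf10b at 0.263 ± 0.029 (SD, n = 3). Casp12 alone of these 33 genes was called, with replicate 1 highest in CPM and replicate 3 highest in TPM.

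**Figure D3:**
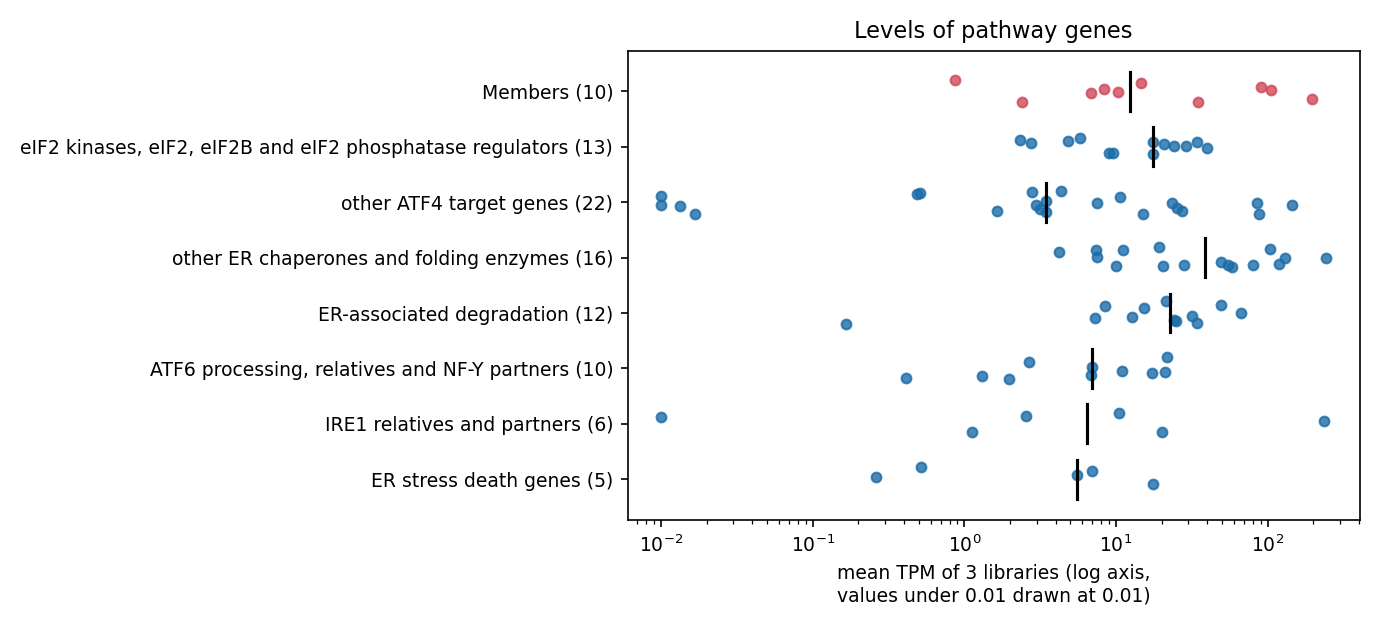
Mean TPM over the 3 libraries (log axis) of every gene of the members and of 7 lists of pathway genes, with the number of genes in brackets and a bar at each list's median. The ER chaperones have the highest median, 38.7 TPM, and the other ATF4 targets the lowest, 3.46 TPM.

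Of the 10 members, 8 had in the alignment-derived table a single transcript model with a mean share of 96% or more of the gene's TPM, and the exceptions were Hspa5 and Ern1. That share was lower in other estimates for some: in read-derived TPM it was 94.7% for Eif2ak3, 95.2% for Xbp1 and 95.1% for Ddit3, and in posterior mean TPM 88.8% for Eif2ak3, 89.3% for Asns and 95.5% for Trib3. Hspa5-202, of 2613 bases, held 73.8%, 74.8% and 70.3% of Hspa5 TPM in replicates 1, 2 and 3. Hspa5-204, a short model of 477 bases annotated for nonsense-mediated decay, held 15.7%, 14.8% and 18.6%. It took only 1.68%, 1.74% and 2.24% of the gene's expected counts, since TPM divides by length. Hspa5-201, of 3672 bases, held 10.5%, 10.2% and 10.7% of TPM in the alignment-derived table and 4.75%, 3.42% and 4.68% in the read-derived one. Hspa5-201 starts at 34771970, upstream of the ERSE shown above, and Hspa5-202 at 34772095, downstream of it and close to the RefSeq start at 34772090. Ern1-201, the full model of 22 exons, held 86.0%, 85.8% and 79.1% of Ern1 TPM. Ern1-204, a model of 11 exons that ends earlier, held 11.5%, 9.76% and 15.1%. Of the expected counts of Ern1, Ern1-204 took only 3.29%, 2.83% and 4.63%, and Ern1-201 took 96.1%, 96.3% and 94.3%. The leading transcript was the same in the alignment-derived and read-derived tables for all 10 members. Chac1 has only 1 annotated transcript, so its share and its leading transcript were fixed in advance.

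**Figure D4:**
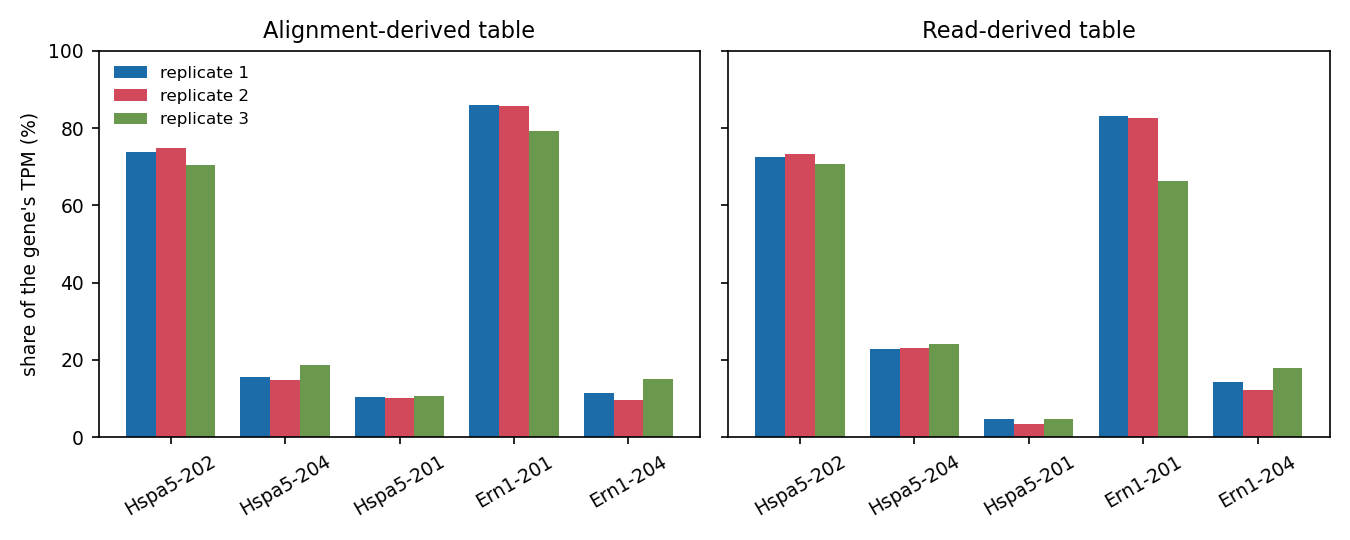
Share of the gene's TPM (%) held by the main Hspa5 and Ern1 transcripts in replicates 1, 2 and 3, from the alignment-derived table (left) and the read-derived table (right). Hspa5-202 and Ern1-201 lead in both, and Hspa5-201 has a smaller share in the read-derived table.

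The splicing of Xbp1 by Ern1 could not be measured here. The 26-base intron printed above lies inside exon 4 of Xbp1-201, which held 97.4% ± 2.51 (SD, n = 3) of Xbp1 TPM. Its presence gives a reading frame of 267 codons, and its removal one of 371. Of 4 annotated Xbp1 transcripts, 3 hold the intron and none is the spliced form, so no model sets the spliced form apart. How reads across the spliced junction were counted is not known. The level of Xbp1 therefore says nothing of the activity of Ern1.

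Atf4 translation is known to depend on open reading frames in the leader, the stretch before the start codon. The leading transcript of Atf4 has a leader of 594 bases with 3 upstream ATG codons, 1 of which opens a frame that overlaps the coding sequence. Eif2ak3 also has 3 upstream ATG codons with 1 overlapping frame, Ddit3 and Asns have 2 each and Xbp1 has 1, while the other 5 members have none. Over 8931 protein-coding genes at 1 TPM or more the median leader was 153 bases, 47.4% had an upstream ATG and 14.9% an overlapping frame. These are properties of the annotated sequence, and translation was not measured.

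Transcripts that keep an intron were highest in replicate 3, the library with the most Malat1 and Neat1. Of the 8 members with an annotated retained-intron transcript, 7 had their highest share in replicate 3. Eif2ak3 had 0%, 0.897% and 6.58% of its TPM in such transcripts in replicates 1, 2 and 3, Atf6 had 0%, 0.163% and 3.20%, and Atf4 had 0.514%, 0.477% and 1.98%. Hspa5 reached no more than 0.395%, and Asns had none. Over 5522 protein-coding genes the medians were 0.782%, 0.659% and 5.35%, with 86.1% highest in replicate 3. Most members thus lay under the median gene of that library. The 5522 were genes at 1 TPM or more in every library with some retained-intron TPM. Genes without any, such as Asns, were left out, which raises these medians. Some of these shares rest on few reads, such as the 14.1 expected counts of Eif2ak3 in replicate 3.

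**Figure D5:**
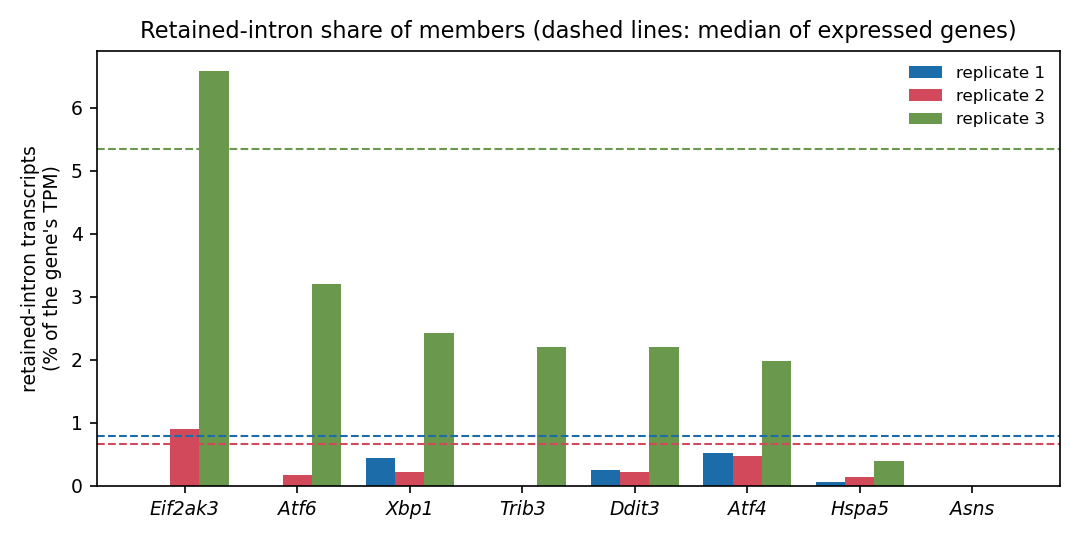
Share of each gene's TPM (%) in retained-intron transcripts for the 8 members that have one annotated, in replicates 1, 2 and 3. Dashed lines lie at each library's median over 5522 protein-coding genes with some such TPM. Replicate 3 is highest for 7 of 8 members, and only Eif2ak3 lies above that library's median of 5.35%.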

How the data were processed

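The deposited data are total RNA-seq of the cytosolic fraction of macrophages, 3 libraries depleted of ribosomal RNA. Per the deposited README, gene and transcript tables come from alignments to mm10 with annotation M21, and the read-derived transcript table was made without that alignment. The sources used here name no aligner or quantifier. Deposited expected counts are estimated reads per feature with shared reads split. The deposited TPM and posterior mean TPM are scaled to length and to the total over all rows, and the deposited FPKM to length and fragment total, by the authors, per the file headers. The authors also deposited the percent of each gene in each transcript. The shares printed were computed from TPM.

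Of 81881 rows of the gene tables, 26248 tRNA rows, 96 spike-in rows and 1 other row name no gene and entered neither library sizes nor tests. Their share was 0.418%, 0.248% and 0.165% of expected counts for replicates 1, 2 and 3. After rounding, TMM scaling of the expected counts used edgeR 4.0.16 under R 4.3.3. Genes with a mean of 10 or more counts entered a chi-square homogeneity test, adjusted by the Benjamini-Hochberg method and called at 0.05 and a ratio of 2 or more, with 0.5 counts added for ratios. The mean of 10 and the ratio of 2 mean that rare genes, such as Derl3 and Fgf21, have no call. With 1 group, edgeR's quasi-likelihood test has no contrast. Every pair of libraries differed beyond counting error, so all 3 were kept. Of each member's leading transcript, no 31-base stretch occurs in transcripts of a gene with another symbol, except 4 of 7216 in Atf6. The second Ddit3 identifier has the same symbol and was not compared. Promoter windows came from RefSeq (GRCm38.p6). Further steps used scipy 1.17.1, numpy 2.4.6 and pandas 2.3.3 under Python 3.11.15, with plots from matplotlib 3.10.9.

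The members and the lists were chosen with earlier results of these data known. Of each pathway list the 3 highest and 2 lowest genes by mean TPM are named, with every gene called, Malat1 and Neat1. Some genes are also named for a motif in their promoter window. Of the marker lists, genes are named only for being at 1 TPM or more, without a count, or called, and these were chosen after their values were seen. Alternatives were read-derived, posterior mean, FPKM and protein-coding-rescaled values, DESeq2 1.42.0 size factors, another ratio, other filters, and leaving out each replicate. The scales compared for the highest library, and the other ATF4 targets with a replicate left out, were chosen after seeing the data. Intervals cover counting error only.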

Additional observations from a re-analysis of the deposited data

How the results depend on the processing

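The 3 calls among members held with DESeq2 size factors, a mean of 50 counts, no count filter and protein-coding genes alone. Of all genes tested in those settings, 16.2%, 7.01%, 18% and 8.21% were called. A ratio of 1.5 gave 5, where 27.2% of all genes were called. Leaving out a replicate gave 0 to 3, where 4.81% to 14.4% of all genes were called. For the other ATF4 targets, leaving out a replicate gave 0 to 4 calls. The members highest in replicate 2 numbered 7, and 4 in plain TPM. The number of members at 10 TPM or more was 6, and 3 in read-derived TPM and 8 in TPM rescaled to protein-coding genes. The leading transcript's share moved by more than its SD for 3 of 10 members in read-derived and 3 of 10 in posterior mean TPM. Their median of 12.5 TPM became 4.78 in read-derived TPM, 20.6 in FPKM and 41.6 in TPM rescaled to protein-coding genes, and 12.0 to 13.1 with a replicate left out. FPKM and TPM rescaled to protein-coding genes have another total than TPM. Protein-coding genes held 14.39%, 12.18% and 8.71% of read-derived TPM in replicates 1, 2 and 3. In plain TPM they held 30.97%, 27.23% and 31.58%. Levels thus compare within a scale only. The spliced share of Xbp1 has no value, because the annotation lacks the spliced form. With 1 group of 3 libraries, no spread between conditions was measured, and Chac1, at 43 to 199 counts, is the least precise member. No paired analysis was possible because there is 1 group.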
